A study of Mus musculus with 14 samples.

Results

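The 9 genes Trp53, Mdm2, Ccng1, Cdkn1a, Btg2, Phlda3, Gadd45a, Gadd45b and Gadd45g were examined in CD11b+ brain cells after traumatic brain injury (TBI). They were chosen by symbol, as the gene of the stress sensor p53, well-known genes that p53 switches on, and the 3 Gadd45 genes, and all 9 were found among the 33939 genes of the deposited table. The libraries came from male C57BL/6 mice, 8 to 12 weeks old, that had been given tamoxifen and were sampled 3 days after TBI. CD11b+ microglia and other myeloid cells were separated with magnetic beads from the contralateral (CL, without lesion) and the ipsilateral (IL, injured) hemisphere. Control mice (Ctrl) carried Cx3cr1-CreER+/- alone, and conditional knockout mice (cKO) carried Cx3cr1-CreER+/- with both alleles of the targeted gene floxed, so both genotypes held 1 CreER allele and received tamoxifen. Each hemisphere of Ctrl gave 4 libraries and each of cKO gave 3, from 8 numbered mice, of which 6 gave both hemispheres. The IL library of mouse 784 and the CL library of mouse 788, both cKO, had no counterpart. The Cre is driven by Cx3cr1, a gene that monocytes also use. The paper left a waiting period between tamoxifen and injury, meant to clear the drug and let peripheral Cx3cr1+ monocytes be replenished. No library of an uninjured mouse was analysed here, so CL is the far side of an injured brain.

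p53, encoded by Trp53, is a transcription factor that is held low by the ubiquitin ligase Mdm2 and accumulates when DNA is damaged or a cell is under other stress. It then switches on genes that stop division, repair DNA or start cell death, and Mdm2 itself is among them, which closes a feedback loop. Cdkn1a (p21) blocks cyclin-dependent kinases, Ccng1 (cyclin G1) acts on Mdm2 through a phosphatase, Btg2 slows division and is also an early response gene that promotes mRNA deadenylation, and Phlda3 restrains Akt signalling. The Gadd45 proteins bind kinases of the p38 and JNK pathways, PCNA and the Cdk1 to cyclin B complex, and they are induced by stress with or without p53. Gadd45b is a well-known target of NF-kB.

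Levels are given in CPM, reads per 1000000 reads assigned to genes. Reads assigned to genes ranged from 12.2 to 41.6 M per library, 1 M being 1000000 reads, with the fewest in mouse 3546 (Ctrl, IL). The cell label was checked with 12 homeostatic microglia markers, of which none was at 0 in all libraries of a group, and their summed level was 41818 to 50719 CPM in CL and 23683 to 28744 CPM in IL. Markers of other myeloid cells were present too. The sum of 12 infiltrating monocyte markers was 134 to 787 CPM in CL and 682 to 995 CPM in IL, and that of 12 neutrophil markers was 1322 to 8621 CPM in CL and 861 to 1512 CPM in IL. In such bulk samples, fewer cells of a type and less RNA per cell cannot be told apart. The summed markers of T and NK cells were at most 22.6 CPM, and those of neurons at most 21.2 CPM.

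All 9 genes were measured in every library. Per kilobase of exon, Btg2 was the highest, with a median of 540.1 CPM per kb over the 14 libraries and a range of 302 to 1096. Gadd45b (median 86.6 CPM per kb), Cdkn1a (86.1) and Gadd45g (70.9) followed, and their ranges overlapped. Ccng1 (25.4), Trp53 (21.0) and Mdm2 (20.6) formed a lower tier, again with ranges that overlapped one another and that lay below all values of the tier above. Gadd45a ranged from 4.14 to 12.6 CPM per kb, and Phlda3, at 1.29 to 5.25 CPM per kb, overlapped it at its top. The fewest reads behind a value were the 57 for Phlda3 in the CL library of Ctrl mouse 3546, so its values carry the largest counting error.

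**Figure D1:**
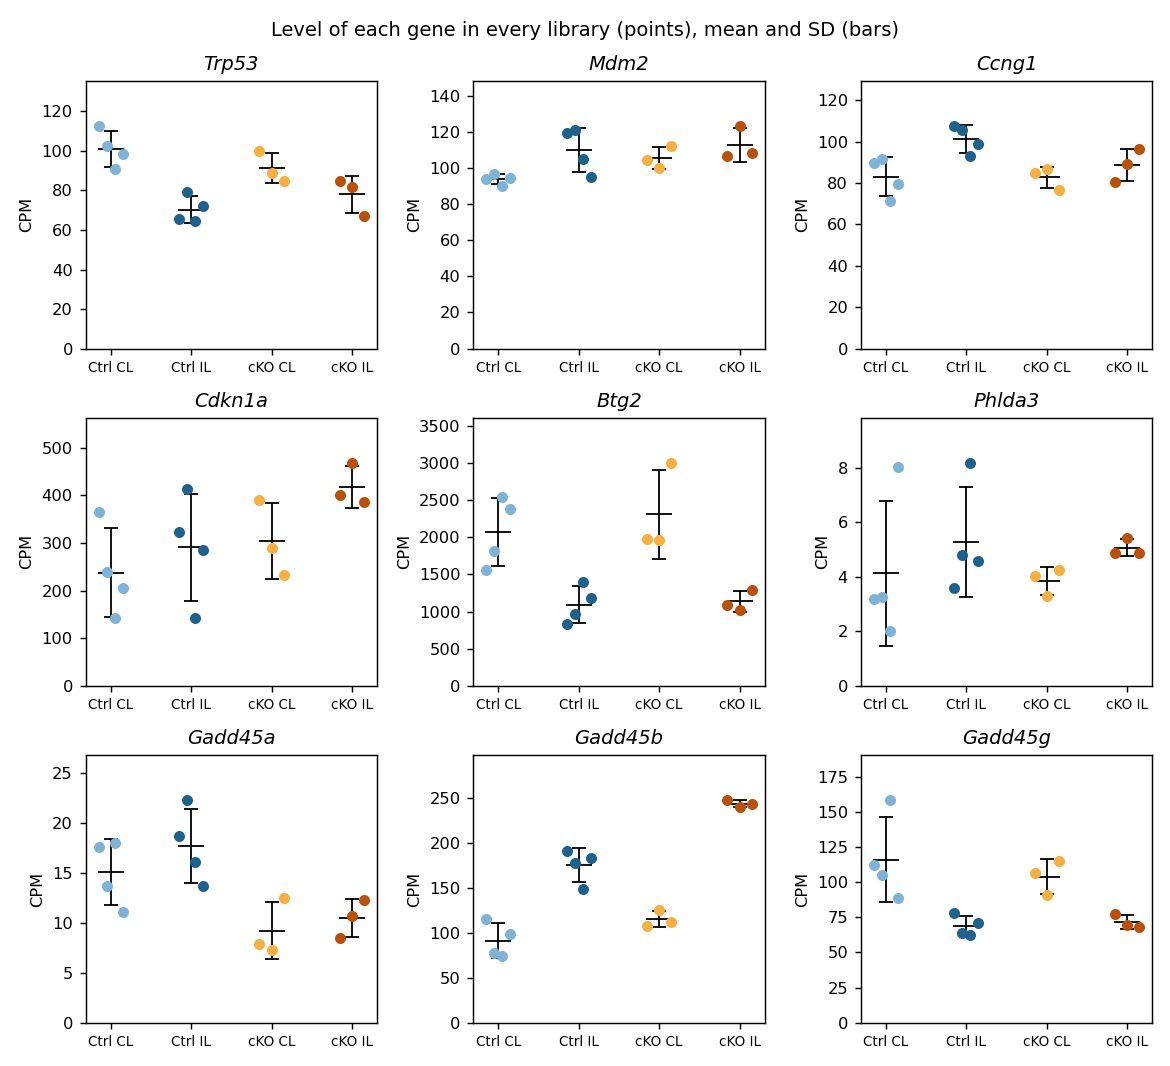
Level in deposited CPM of each of the 9 genes in the 14 libraries. Each point is a library, bars are the group mean and SD, and each axis starts at 0. The IL values of Gadd45b lie above the CL values of the same genotype and those of Btg2 and Gadd45g below (on the scaled CPM Gadd45g overlaps in Ctrl), while Cdkn1a, Mdm2, Phlda3 and Gadd45a overlap between CL and IL in Ctrl.

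The first comparison was of the injured with the far hemisphere in Ctrl mice. Calls needed a fold change of at least 1.2 and, in limma's moderated test on log2(CPM + 1), a p of at most 0.05 after Benjamini-Hochberg adjustment over all genes tested. Of the 9 genes, Gadd45b rose and Btg2 fell in IL, 2 of 9 where 6.58% of the 16376 genes tested were called. The mice are the replicates. Since 6 of 8 gave both hemispheres, each comparison of hemispheres was also fitted with the mouse as a block. With the block, 5 of the 9 were called, Gadd45b and Ccng1 higher and Btg2, Gadd45g and Trp53 lower, where 20.5% of all genes were called. With the mouse as a random effect in a fit of all 14 libraries Mdm2 was called as well, 6 of 9 where 23.0% of all genes were called. The levels printed for libraries, their ratios and their overlaps are on the deposited CPM, and the tests on CPM scaled between libraries. For 5 of the 9 genes, the same 5, the Ctrl IL and Ctrl CL values did not overlap on the deposited CPM, against 17.7% of all genes. On the scaled CPM of the test only Gadd45b and Btg2 of these did not overlap, 2 of 9 against 15.1% of all genes. The median log2 change of the 9 genes was 0.30, beside -0.04 over all genes.

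In cKO mice, Gadd45b rose and Btg2 and Gadd45g fell in IL, 3 of 9 where 22.4% of the 16758 genes tested were called, so the share of the 9 was not far from that of all genes. With the mouse as a block, which rests on the 2 cKO mice with both hemispheres, Gadd45b and Cdkn1a were called higher and Btg2 lower, where 13.5% of all genes were called. Groups did not overlap for 5 of the 9 genes, Gadd45b and Phlda3 higher and Btg2, Gadd45g and Trp53 lower in IL, against 42.4% of all genes, and on the scaled CPM for 4, Trp53 no longer among them, against 41.9%. The median log2 change was 0.18, beside 0.02 over all genes.

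**Figure D2:**
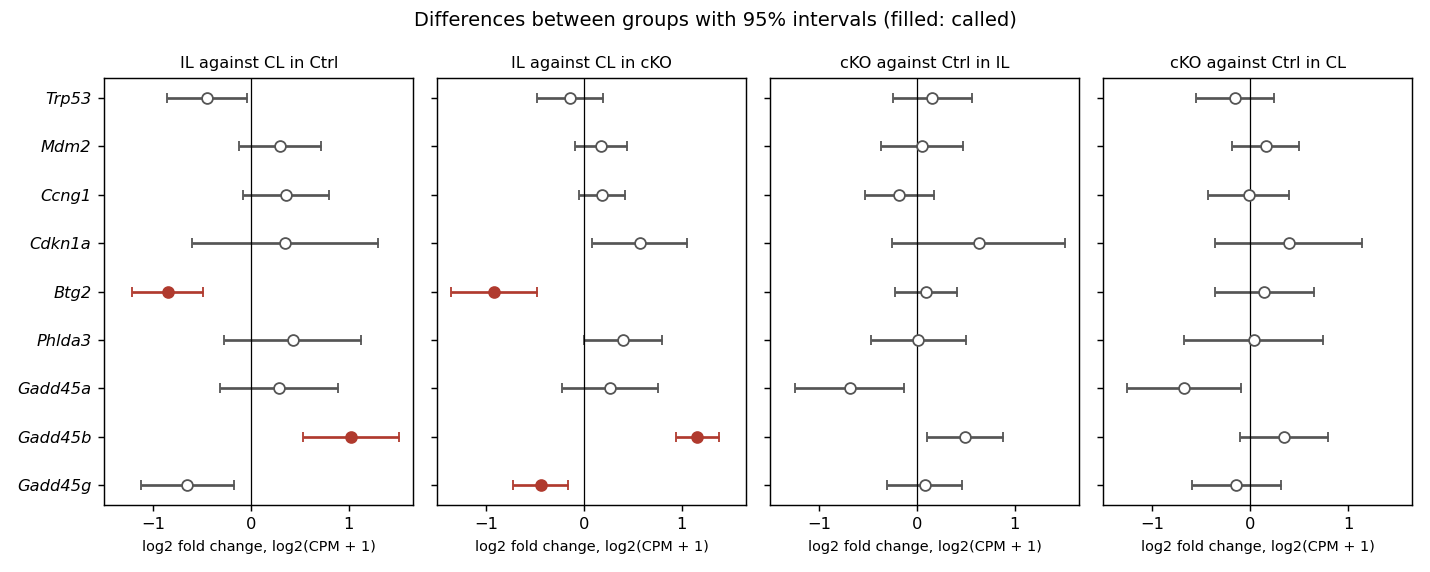
Log2 fold change with its 95% interval for the 9 genes in 4 comparisons, on the log2(CPM + 1) scale. Filled points were called, namely Gadd45b and Btg2 between hemispheres in both genotypes and Gadd45g in cKO, and none of the 9 was called between genotypes.

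Gadd45b binds the kinase MKK7 and tempers JNK signalling. In Ctrl CL libraries it was at 116 CPM in mouse 3541, 77.8 in 3545, 74.0 in 3546 and 98.8 in 3551. In Ctrl IL libraries it was at 192 CPM in mouse 3541, 178 in 3545, 149 in 3546 and 184 in 3551, so that every IL library was above every CL library. The change was 1.02 ± 0.22 on the log2 scale (SE, limma, adjusted p = 0.0235, 4 against 4 libraries), and with the mouse as a block 1.02 ± 0.09 (limma, adjusted p = 0.000629). Without the block this call was lost when no filter was used (limma, adjusted p = 0.0675), and it depended on which library was left out. It was kept without either the CL library of 3541 or the IL library of 3546, and lost without the CL library of 3545, 3546 or 3551 or without the IL library of 3541, 3545 or 3551, with limma adjusted p from 0.0505 to 0.0874, and log2 changes stayed between 0.89 and 1.05 in these 6 fits.

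Gadd45b in cKO CL libraries was at 108 CPM in mouse 788, 126 in 791 and 113 in 3592. In cKO IL libraries it was at 248 CPM in mouse 784, 241 in 791 and 244 in 3592, the closest agreement among replicates that it showed in any group. It rose by 1.16 ± 0.09 on the log2 scale (limma, adjusted p = 0.00183, 3 against 3 libraries), and the call was kept in all 16 alternative fits, with adjusted p at most 0.0128. Within each of the 6 mice that gave both hemispheres, Gadd45b was higher in IL, with IL to CL ratios of CPM from 1.66 to 2.29 and a median of 1.96.

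Gadd45g, which like its relatives restrains the Cdk1 to cyclin B complex and binds MAP3K4, was lower in IL. In Ctrl CL libraries it was at 112 CPM in mouse 3541, 105 in 3545, 158 in 3546 and 88.4 in 3551, and in Ctrl IL libraries at 77.9, 63.6, 62.3 and 71.0 in the same order. The groups did not overlap on the deposited CPM and did on the scaled CPM, and the log2 change of -0.65 ± 0.21 missed the threshold without the block (limma, adjusted p = 0.11) and passed it with the block (-0.65 ± 0.17, limma, adjusted p = 0.0387). It also passed in the fit of all 14 libraries (limma, adjusted p = 0.0368), on the deposited CPM (0.0369) and without the CL library of 3551 (0.0416). In cKO CL libraries it was at 106 CPM in mouse 788, 90.8 in 791 and 115 in 3592, and in cKO IL libraries at 77.6 in 784, 69.6 in 791 and 67.9 in 3592. These groups did not overlap either.

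Gadd45g fell by 0.44 ± 0.12 on the log2 scale in cKO IL (limma, adjusted p = 0.0364). That call was lost in 9 of 16 alternative fits, among them the block (limma, adjusted p = 0.0919), the fit of all 14 libraries (limma, adjusted p = 0.264) and the fits without any cKO library but the CL library of 791 (limma, adjusted p from 0.0646 to 0.119). Within the 6 mice the IL to CL ratio of Gadd45g was 0.393 to 0.803, below 1 in 6 of 6. Gadd45b and Gadd45g stood in opposite order in the hemispheres. Per kilobase of exon, Gadd45g was the higher of the pair in 6 of 7 CL libraries, with Gadd45b to Gadd45g ratios of 0.344 to 1.02, and Gadd45b was the higher in 7 of 7 IL libraries, with ratios of 1.77 to 2.65.

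Gadd45a, the relative most directly driven by p53, was the lowest of the 3. In Ctrl CL libraries it was at 17.6 CPM in mouse 3541, 13.7 in 3545, 18.0 in 3546 and 11.1 in 3551, and in Ctrl IL libraries at 18.7, 22.3, 16.0 and 13.7 in the same order. The hemispheres overlapped, with a log2 difference of 0.29 ± 0.27 (95% interval -0.31 to 0.89, limma, adjusted p = 0.624). The cKO CL libraries held 7.86 CPM in mouse 788, 7.30 in 791 and 12.5 in 3592, and the cKO IL libraries 8.44 in 784, 10.7 in 791 and 12.3 in 3592. These overlapped too, with a log2 difference of 0.26 ± 0.21 (95% interval -0.23 to 0.75, limma, adjusted p = 0.414). The antisense gene E230016M11Rik shares 337 exonic bases with Gadd45a, and since the strand of the counting is not given in the sources used here, reads of the pair cannot be told apart there. E230016M11Rik was at 0.656 to 1.88 CPM. Gadd45a was higher in IL in 4 of the 6 mice with both hemispheres, and in 5 on the scaled CPM.

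Sequences before the start sites are shown for the Gadd45 genes, because they differed in direction, and for Btg2 and Cdkn1a, the gene of the strongest fall and the classical p53 target. They are 200 bases each from RefSeq's promoters of GRCm38.p6, written 5′ to 3′ on the strand of the gene. Capitals mark the TATA box TATAAA, the CCAAT box CCAAT, the cyclic AMP response element (CRE) TGACGTCA and the p53 half-site, searched on both strands. Gadd45b is at chr10:80929873-80930072 (plus), Gadd45g at chr13:51846475-51846674 (plus), Gadd45a at chr6:67037458-67037657 (minus), Btg2 at chr1:134079156-134079355 (minus) and Cdkn1a, before the first of its 2 RefSeq start sites, at chr17:29090776-29090975 (plus).
Gadd45b: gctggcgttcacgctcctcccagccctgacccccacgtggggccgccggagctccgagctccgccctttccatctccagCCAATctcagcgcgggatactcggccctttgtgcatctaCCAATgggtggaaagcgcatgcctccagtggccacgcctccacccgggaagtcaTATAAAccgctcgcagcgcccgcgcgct
Gadd45g: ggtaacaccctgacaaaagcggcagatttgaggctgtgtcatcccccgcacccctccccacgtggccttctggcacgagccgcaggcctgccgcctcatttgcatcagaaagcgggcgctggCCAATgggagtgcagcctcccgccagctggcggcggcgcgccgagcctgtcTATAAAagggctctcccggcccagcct
Gadd45a: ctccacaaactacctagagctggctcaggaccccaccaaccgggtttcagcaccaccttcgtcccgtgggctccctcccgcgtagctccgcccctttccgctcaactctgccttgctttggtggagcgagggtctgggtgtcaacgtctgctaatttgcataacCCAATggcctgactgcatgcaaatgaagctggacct
Btg2: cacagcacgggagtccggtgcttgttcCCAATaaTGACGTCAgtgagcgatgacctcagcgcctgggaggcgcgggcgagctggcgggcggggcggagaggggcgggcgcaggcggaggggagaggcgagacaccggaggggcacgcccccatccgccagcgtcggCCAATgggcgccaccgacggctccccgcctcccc
Cdkn1a: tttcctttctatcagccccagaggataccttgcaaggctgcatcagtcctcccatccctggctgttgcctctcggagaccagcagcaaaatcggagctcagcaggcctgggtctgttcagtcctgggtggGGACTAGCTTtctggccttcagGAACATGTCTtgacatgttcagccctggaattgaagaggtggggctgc

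Counted from the start site, the stretches run from -218 to -19 for Gadd45b, from -250 to -51 for Gadd45a, from -203 to -4 for Cdkn1a and from -200 to -1 for Gadd45g and Btg2. Gadd45b and Gadd45g each hold a TATA box and a CCAAT box, and Gadd45b a GC box that Gadd45g lacks. Gadd45a holds a CCAAT box, a GC box and a p53 half-site in its 300 bases, and no TATAAA. Over the whole 300-base promoters of RefSeq, 250 bases before to 50 after the start, TATAAA was in 3 of the 9 genes (Trp53, Gadd45b and Gadd45g) and in 13.6% of all 32851 promoters. CCAAT was in 7 of the 9 genes and in 37.4% of all promoters. The CRE was in Btg2 alone of the 9 and in 1.79% of all promoters, and lies beside a CCAAT box there. The p53 half-site was in Trp53, Mdm2, Ccng1, Cdkn1a and Gadd45a, with 2 non-overlapping matches in Cdkn1a, and in 8.36% of all promoters. Both matches of Cdkn1a lie before the first of its RefSeq start sites, in the stretch printed. The match of Gadd45a lies downstream of the stretch printed. Neither the AP-1 motif TGACTCA (5.20% of all promoters) nor the CArG box (1.63%) was in any of the 9, the NF-kB motif (4.51%) was in Trp53, where it overlaps a CCAAT box, and the GC box GGGCGG (35.7%) was in 6 (Btg2, Phlda3, Mdm2, Cdkn1a, Gadd45a and Gadd45b). The GC boxes of Cdkn1a lie before its other start site, outside the stretch printed. A gene was counted if any of its promoters matched, while the shares are of single promoters. These matches are descriptions of letters in the windows searched.

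Btg2, which slows the cell cycle and turns up early in many stress responses, showed the strongest fall of the 9 genes on the log2 scale. In Ctrl CL libraries it was at 1560.2 CPM in mouse 3541, 1819.6 in 3545, 2539 in 3546 and 2379 in 3551, and in Ctrl IL libraries at 828, 965, 1403 and 1179 in the same order. Every IL library was below every CL library, and the log2 change was -0.85 ± 0.16 (limma, adjusted p = 0.0152). With the block it was -0.85 ± 0.09 (limma, adjusted p = 0.00128). Without the block, the call was lost when the IL library of 3541 (limma, adjusted p = 0.0574) or of 3545 (0.0514) was left out, and when no filter was used (0.058). In cKO CL libraries Btg2 was at 1974 CPM in mouse 788, 1961 in 791 and 3006 in 3592, and in cKO IL libraries at 1087 in 784, 1024 in 791 and 1297 in 3592.

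Again the groups did not overlap, and Btg2 fell by 0.92 ± 0.19 on the log2 scale in cKO IL (limma, adjusted p = 0.0124). The call was lost when the IL library of 784 (limma, adjusted p = 0.0582) or of 791 (0.0539) was left out, and kept with the block (limma, adjusted p = 0.0267). In all 6 mice with both hemispheres the IL to CL ratio of Btg2 lay between 0.431 and 0.552, the narrowest range of a ratio below 1 among the 9 genes. Within each hemisphere, the libraries of mouse 3546 in Ctrl and of 3592 in cKO had the highest Btg2 of their group.

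**Figure D3:**
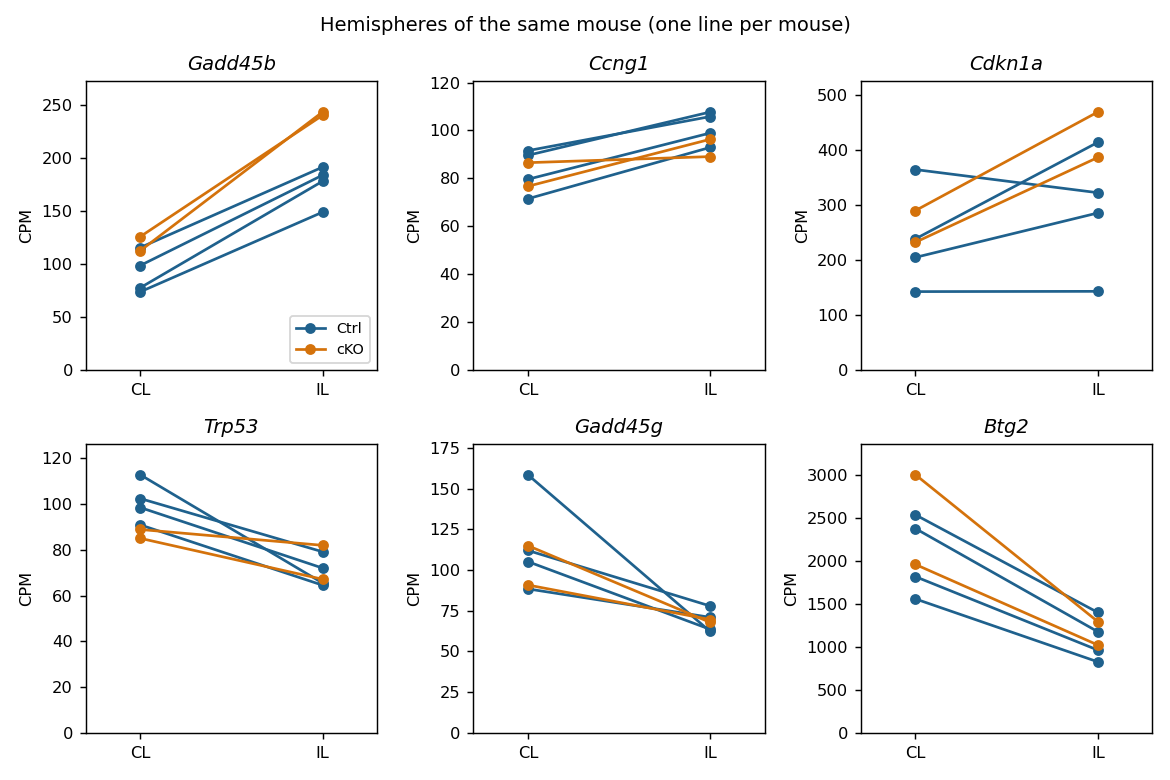
Deposited CPM in the CL and IL hemisphere of the same mouse for 6 of the 9 genes, with a line for each of the 4 Ctrl and 2 cKO mice that gave both hemispheres. Lines of Gadd45b and Ccng1 go up and those of Trp53, Gadd45g and Btg2 go down in 6 of 6 mice (on the scaled CPM Trp53 goes up in mouse 791), while Cdkn1a goes down in mouse 3541 only.

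Trp53 itself was lower in IL than in CL in 6 of the 6 mice that gave both hemispheres, and in 5 of 6 on the scaled CPM, where mouse 791 had 84.3 in CL and 89.3 in IL. In Ctrl CL libraries it was at 113 CPM in mouse 3541, 102 in 3545, 90.9 in 3546 and 98.5 in 3551, and in Ctrl IL libraries at 65.5, 79.2, 64.6 and 72.0 in the same order. The groups did not overlap on the deposited CPM and did on the scaled CPM, and the log2 difference of -0.45 ± 0.18 missed the threshold without the block (limma, adjusted p = 0.193) and passed it with the block (-0.45 ± 0.09, limma, adjusted p = 0.014). In cKO CL libraries it was at 100.04 CPM in mouse 788, 88.9 in 791 and 85.0 in 3592, and in cKO IL libraries at 84.8 in 784, 82.0 in 791 and 67.2 in 3592. These had 85.0 and 84.8 CPM as their nearest values and overlapped on the scaled CPM, and the log2 difference was -0.14 ± 0.15 (limma, adjusted p = 0.519). Within the 6 mice the ratio was 0.581 to 0.922, and 0.613 to 1.06 on the scaled CPM.

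The pseudogene Trp53-ps matches Trp53 at 94.96% of 1170 aligned bases, so reads may be split between them. It was at 2.68 to 5.53 CPM and lower in IL in 6 of 6 mice (5 of 6 on the scaled CPM), with ratios of 0.581 to 0.976.

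Mdm2, the ligase that removes p53, was in Ctrl CL at 94.0 CPM in mouse 3541, 97.0 in 3545, 90.1 in 3546 and 94.4 in 3551. In Ctrl IL it was at 119, 121, 105 and 95.3 CPM in the same order, which overlaps CL. The cKO libraries lay between 100.3 and 112 CPM in CL and between 107 and 124 CPM in IL. The log2 difference between hemispheres was 0.30 ± 0.19 in Ctrl (95% interval -0.12 to 0.72, limma, adjusted p = 0.431) and 0.18 ± 0.11 in cKO (95% interval -0.09 to 0.44, limma, adjusted p = 0.303). Mdm2 was higher in IL in 5 of 6 mice, by at most 1.27 times, or 1.42 times on the scaled CPM.

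Ccng1 was at 89.6 CPM in mouse 3541, 91.6 in 3545, 71.5 in 3546 and 79.6 in 3551 in Ctrl CL, and at 108, 106, 92.9 and 98.9 CPM in the same order in Ctrl IL. All Ctrl IL values were above all Ctrl CL values on the deposited CPM, while the groups overlapped on the scaled CPM. The log2 difference of 0.36 ± 0.20 missed the threshold without the block (limma, adjusted p = 0.343) and passed it with the block (0.36 ± 0.08, limma, adjusted p = 0.0172). The cKO libraries overlapped, at 76.7 to 86.6 CPM in CL and 80.6 to 96.3 CPM in IL, with a log2 difference of 0.18 ± 0.10 (limma, adjusted p = 0.233). The IL to CL ratio of Ccng1 was above 1 in 6 of 6 mice, from 1.03 to 1.3.

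Cdkn1a, the p21 brake on the cell cycle, varied widely between Ctrl mice. In Ctrl CL it was at 364 CPM in mouse 3541, 238 in 3545, 143 in 3546 and 205 in 3551, and in Ctrl IL at 322, 413, 143 and 285 CPM in the same order. The hemispheres overlapped, with a log2 difference of 0.35 ± 0.43 (95% interval -0.60 to 1.3, limma, adjusted p = 0.732), and the gene was not called with the block either (limma, adjusted p = 0.17). In cKO CL it was at 391 CPM in mouse 788, 289.7 in 791 and 232 in 3592, and in cKO IL at 400.2 in 784, 468 in 791 and 386 in 3592.

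The cKO values of Cdkn1a overlapped by the CL library of 788 alone. The log2 difference was 0.57 ± 0.21 (limma, adjusted p = 0.0886). The gene was called in 2 of 16 alternative fits, higher with the block of 2 mice (0.82 ± 0.14, limma, adjusted p = 0.0098) or without the CL library of 788 (0.79, limma, adjusted p = 0.0267). In the other 14 fits it was not called, with the mouse as a random effect among them (limma, adjusted p = 0.159). Within mice, Cdkn1a was higher in IL in 5 of 6, with ratios from 0.885 to 1.73. A transcript of unknown status, AC167363.2, shares 273 exonic bases with it on the other strand and was at 1.17 to 3.999 CPM.

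Phlda3 ranged from 2.01 to 8.03 CPM in CL and 3.58 to 8.18 CPM in IL of Ctrl, and from 3.28 to 4.26 CPM in CL and 4.87 to 5.44 CPM in IL of cKO. The cKO hemispheres did not overlap, and neither difference passed the threshold, at 0.43 ± 0.31 on the log2 scale in Ctrl (limma, adjusted p = 0.509) and 0.40 ± 0.17 in cKO (limma, adjusted p = 0.138). Its spread in Ctrl CL rested on the 8.03 CPM of mouse 3551, where the other 3 libraries were at 2.01 to 3.26 CPM. Phlda3 was higher in IL in 5 of 6 mice.

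The second question was whether deletion of the targeted gene in Cx3cr1-expressing cells changed these genes. None of the 9 was called between cKO and Ctrl, in IL where 0.658% of the 16873 genes tested were called, or in CL where 0.875% of 16570 were. By limma, Gadd45a and Gadd45b had an unadjusted p under 0.05 in IL, where 8.9% of all genes did, and Gadd45a in CL, where 9.81% did. Gadd45b and Gadd45a did not overlap between genotypes in IL, 2 of 9 against 10.3% of all genes (10.02% on the scaled CPM, for the same pair). Mdm2 did not overlap in CL on the deposited CPM, 1 of 9 and higher in cKO, against 10.01% of all genes, and on the scaled CPM none of the 9 did, against 9.25%.

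In IL, Gadd45b averaged 244 ± 3.95 CPM for cKO (SD, n = 3) and 176 ± 18.6 CPM for Ctrl (n = 4), a log2 difference of 0.49 ± 0.17 (95% interval 0.10 to 0.88, limma, adjusted p = 0.384). In CL it was at 116 ± 9.23 CPM in cKO and 91.6 ± 19.5 CPM in Ctrl, and these overlapped (0.35 ± 0.20, limma, adjusted p = 0.626). In IL, Gadd45a averaged 10.46 ± 1.93 CPM for cKO and 17.7 ± 3.70 CPM for Ctrl, a log2 difference of -0.69 ± 0.24 (95% interval -1.24 to -0.13, limma, adjusted p = 0.391). In CL Gadd45a was at 9.23 ± 2.87 CPM in cKO and 15.1 ± 3.31 CPM in Ctrl, with 1 cKO library, that of 3592, inside the Ctrl range (-0.67 ± 0.27, limma, adjusted p = 0.411). The 2 members of the family thus stood on opposite sides of Ctrl in both hemispheres, without passing the threshold.

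Cdkn1a averaged 418 ± 44.1 CPM for cKO and 291 ± 112 CPM for Ctrl on the injured side, where mouse 3545 at 413 CPM lay inside the cKO range (0.63 ± 0.39, 95% interval -0.26 to 1.51, limma, adjusted p = 0.748). Mdm2 in CL was at 106 ± 6.05 CPM in cKO and 93.9 ± 2.85 CPM in Ctrl (0.16 ± 0.15, limma, adjusted p = 0.77). For Btg2 the log2 difference between genotypes was 0.09 in IL with a 95% interval of -0.23 to 0.40, and for Trp53 it was 0.16 with an interval of -0.24 to 0.56. In IL Mdm2 differed by 0.05, and in CL Cdkn1a differed by 0.40, Btg2 by 0.15 and Trp53 by -0.15 (limma, adjusted p from 0.749 to 0.973). The remaining genes, Ccng1, Phlda3 and Gadd45g, differed between genotypes by -0.18 to 0.08 on the log2 scale in the 2 hemispheres.

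The interaction of genotype and hemisphere, tested over all 14 libraries, called none of the 9 genes, where 0 of the 18476 genes tested were called (0%) and 481 had an unadjusted p under 0.05. The smallest unadjusted p among the 9 was that of Trp53, at 0.247 by limma, with a difference of 0.31 between the log2 changes of the genotypes and a 95% interval of -0.24 to 0.85. For Gadd45b the difference was 0.14 (95% interval -0.45 to 0.73) and for Btg2 -0.06 (95% interval -0.60 to 0.48). Intervals of this width do not show that the genotypes responded alike.

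Relatives of the 9 genes were read from a list of 12, of which 11 were matched and 10 passed the filter on low values between hemispheres. In Ctrl 1 of the 10 was called, where 6.58% of all genes were, and in cKO 3 of 10, where 22.4% were. Phlda1, a relative of Phlda3, rose in both genotypes, from 17.2 ± 4.37 to 53.9 ± 6.60 CPM in Ctrl (1.70 ± 0.20, limma, adjusted p = 0.00145) and from 22.0 ± 2.03 to 65.3 ± 6.06 CPM in cKO (1.61 ± 0.13, limma, adjusted p = 0.00183). Mdm4, the partner of Mdm2 that masks p53, fell by 0.54 ± 0.10 on the log2 scale in cKO (limma, adjusted p = 0.00734). Ccng2, the relative of Ccng1 that FoxO factors drive, fell by 0.59 ± 0.15 in cKO (limma, adjusted p = 0.025), a call lost with the block (limma, adjusted p = 0.103) and without the IL library of 784, the CL library of 788 or the IL library of 3592 (limma, adjusted p from 0.0598 to 0.0966). In the fit of all 14 libraries without the mouse neither Mdm4 nor Ccng2 was called, and with the mouse as a random effect Ccng2 was called and Mdm4 was not. With the block, Ccng2 was called lower in Ctrl and Cdkn1c (p57) lower in both genotypes. Btg1, Btg3, Tob1, Tob2, Trp73 and Cdkn1b (p27) were not called in any comparison, except Btg1, which was called lower in IL than in CL of cKO with the deposited CPM (limma, adjusted p = 0.0255). Trp63, at most 1.145 CPM, did not pass the filter between hemispheres or genotypes.

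Of 35 further p53 target genes tested, 5 rose and 2 fell in Ctrl IL, 7 of 35 where 6.58% of all genes were called, with a median log2 change of 0.06 beside -0.04 over all genes. Higher were Plk2, a kinase induced by p53 (42.2 ± 11.3 to 115 ± 22.0 CPM, 1.51 ± 0.29), Trim25, an E3 ligase of antiviral signalling (14.2 ± 3.70 to 41.3 ± 7.91 CPM, 1.56 ± 0.18), Rap2b, a small GTPase (7.44 ± 2.03 to 25.98 ± 4.10 CPM, 1.76 ± 0.22), and Steap3, an endosomal iron reductase (2.88 ± 0.43 to 6.68 ± 1.44 CPM, 1.03 ± 0.22). Their limma adjusted p ranged from 0.00145 to 0.0237. The fifth, Gdf15, a stress cytokine named here after its values were seen, went from 27.7 ± 12.2 to 96.8 ± 45.8 CPM (1.81 ± 0.44, limma, adjusted p = 0.0381), and in cKO from 21.5 ± 5.84 to 29.6 ± 4.60 CPM (0.55 ± 0.20, limma, adjusted p = 0.0843). Lower were Ercc5, a repair nuclease (43.4 ± 3.92 to 22.2 ± 4.23 CPM, -0.88 ± 0.15), and Rrm2b, a subunit of ribonucleotide reductase (12.9 ± 3.37 to 5.004 ± 1.60 CPM, -1.15 ± 0.24). With the block 8 rose and 4 fell, where 20.5% of all genes were called, and when the CL library of 3545 or 3546 or the IL library of 3541, 3545 or 3551 was left out the total of 7 went to 3 or 4, while the share of all genes called went to between 2.87% and 3.71%.

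In cKO IL, 12 of the 35 target genes rose and 4 fell, 16 of 35 where 22.4% of all genes were called, with a median log2 change of 0.24 beside 0.02 over all genes. The most significant were again Trim25 (1.2 ± 0.13), Plk2 (1.86 ± 0.20) and Steap3 (1.18 ± 0.16), with Rps27l, a ribosomal protein relative (0.79 ± 0.10), and their limma adjusted p ranged from 0.00183 to 0.00299. Those that fell were Ercc5 (-0.68 ± 0.12), Sesn1, an antioxidant regulator of mTORC1 (-0.95 ± 0.17), Ddb2, a damage sensor (-0.69 ± 0.16), and Rrm2b (-0.58 ± 0.16), with limma adjusted p from 0.00787 to 0.0333. With the block 10 rose and 2 fell, Ercc5 and Sesn1, where 13.5% of all genes were called, and in a fit of all 14 libraries, where 7.53% of all genes were called, the total of 16 was 9. In limma's test of the interaction with genotype none of the 35 was called and 4 had an unadjusted p under 0.05, as did 2.6% of all genes, so a gene called in 1 genotype alone is not shown to differ between them.

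**Figure D4:**
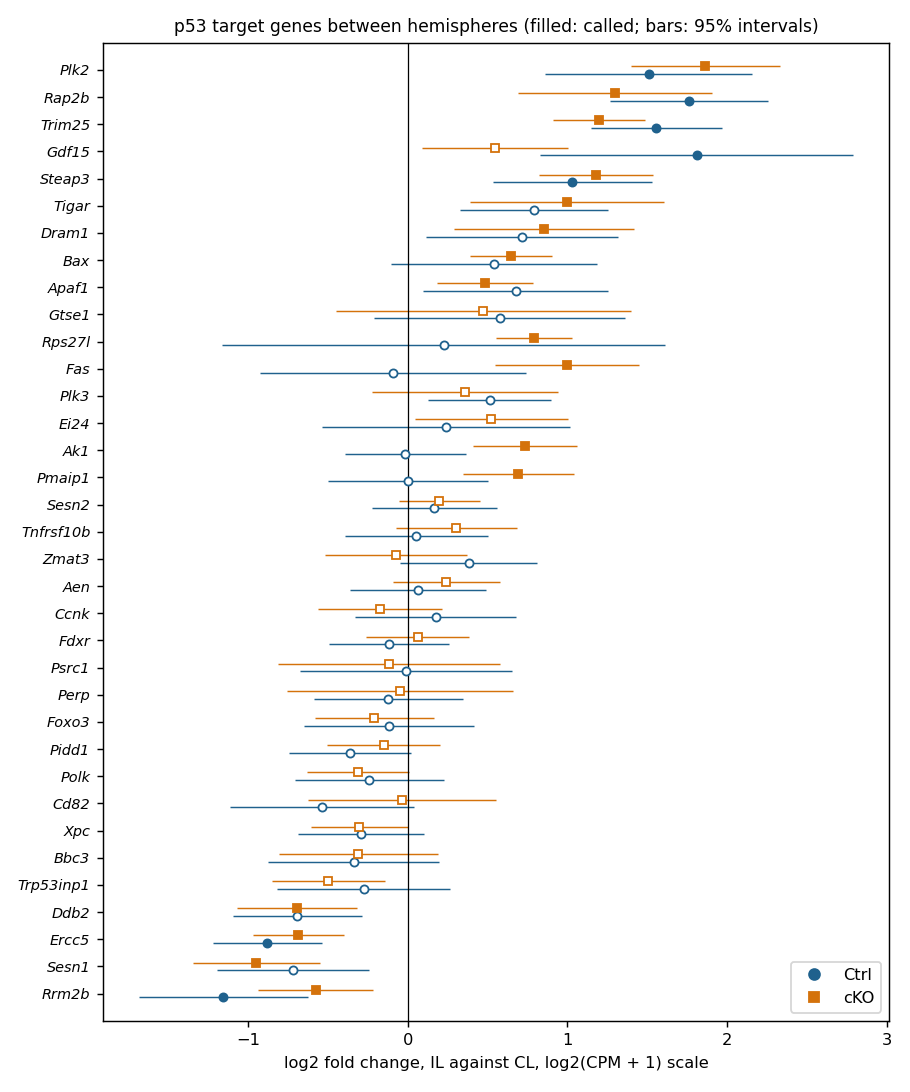
Log2 fold change of IL against CL, on the log2(CPM + 1) scale, for the 35 p53 target genes tested, in Ctrl (circles) and cKO (squares), with 95% intervals. Filled marks were called, 7 in Ctrl and 16 in cKO, and genes are ordered by the mean change of the genotypes, from Plk2 at the top to Rrm2b at the bottom.

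Between genotypes, Ak1, an adenylate kinase on the target list, was the 1 gene of 35 that was called in either hemisphere, where 0.658% of all genes were called in IL and 0.875% in CL. It averaged 221 ± 41.2 CPM for cKO and 70.4 ± 9.14 CPM for Ctrl in IL (1.64 ± 0.18, limma, adjusted p = 0.00549), and 140.4 ± 23.8 CPM for cKO and 74.4 ± 2.12 CPM for Ctrl in CL (0.88 ± 0.16, limma, adjusted p = 0.0334). With the IL library of 784 left out, none of the 35 was called in IL, and in CL none was called with any library but that of Ctrl mouse 3541 left out. By limma without the block, none of 7 G1 cyclins and kinases was called between hemispheres in Ctrl, where 6.58% of all genes were. None of the 7 had an unadjusted p under 0.05 there. Cdk4 was called higher in cKO IL (0.50 ± 0.12, limma, adjusted p = 0.0192), 1 of 7 where 22.4% of all genes were called. With the block Cdk4 alone was called, higher in Ctrl (0.37 ± 0.08, limma, adjusted p = 0.0202), where 20.5% of all genes were called. In cKO it was called as well (0.58 ± 0.13, limma, adjusted p = 0.0256), where 13.5% were. Between genotypes 1 of the 7 was called, in IL. It was Ccnd1, the cyclin D1 that drives cells through G1, which was higher in cKO IL at 107 ± 21.4 CPM against 42.9 ± 15.3 CPM in Ctrl (1.35 ± 0.21, limma, adjusted p = 0.0324), a call that was lost without any IL library but that of Ctrl mouse 3546, with upper-quartile scaling and with the deposited CPM.

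Of 16 regulators of p53 tested, none was called in Ctrl by limma, where 6.58% of all genes were. An unadjusted p under 0.05 was found for 3 of the 16 and for 21.1% of all genes, and with the block 2 rose and 1 fell, where 20.5% were called. In cKO, Ep300, a coactivator that acetylates p53 (-0.49 ± 0.09, limma, adjusted p = 0.00866), and Ppm1d, the phosphatase that p53 induces against itself (-0.46 ± 0.12, limma, adjusted p = 0.031), fell, 2 of 16 where 22.4% of all genes were called, and neither was called with the block. Without the IL library of 784, 791 or 3592 or the CL library of 791, 1 regulator was called, and 10.95% to 17.4% of all genes. Cdkn2a, which encodes p19ARF, did not pass the filter and was at 0 to 0.176 CPM. Among 10 partners of the Gadd45 proteins none was called in Ctrl by limma without the block (3 had an unadjusted p under 0.05, as did 21.1% of all genes), and with it 2 rose and 2 fell, where 20.5% of all genes were called. In cKO Map2k3, a kinase upstream of p38, rose (0.70 ± 0.13) while Map2k6, the other kinase upstream of p38 (-0.70 ± 0.19), and Mapk14, which encodes p38 alpha itself (-0.51 ± 0.10), fell, with limma adjusted p from 0.00876 to 0.0354, 3 of 10 where 22.4% of all genes were called. With the block, 3 partners were called in cKO, all higher, where 13.5% of all genes were called.

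Since Cdkn1a, Btg2 and the Gadd45 genes restrain division, 23 proliferation genes were read beside them. Mki67 was the gene called in Ctrl, from 64.5 ± 15.3 to 114 ± 28.6 CPM (0.88 ± 0.20, limma, adjusted p = 0.0277), 1 of 23 where 6.58% of all genes were called, and with the block 6 of 23 rose, where 20.5% of all genes were called. In cKO Birc5 (0.93 ± 0.25) and Rrm2 (1.07 ± 0.28) rose (limma, adjusted p = 0.0312 and 0.0278), 2 of 23 where 22.4% of all genes were called, and 14 rose with the block, where 13.5% were. No proliferation gene fell in either genotype. These calls were unstable, since Mki67 was lost without any of 6 of the 8 Ctrl libraries, and both cKO calls were lost without the IL library of 784, 791 or 3592 while 9 genes were called without the CL library of 788, a fit that called 14.4% of all genes.

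Several of the 9 genes answer quickly to handling of cells, and a list of 19 genes known to respond to tissue dissociation moved with the hemispheres. Its summed level was 35002 to 45473 CPM on the CL side and 26384 to 30871 CPM on the IL side of Ctrl, and 40831 to 55653 CPM on the CL side and 28484 to 33122 CPM on the IL side of cKO. In Ctrl 1 of the 19 rose, Nr4a1 (1.02 ± 0.15, limma, adjusted p = 0.00436), and 1 fell, Klf2 (-0.85 ± 0.22, limma, adjusted p = 0.0449), which is 2 of 19 where 6.58% of all genes were called. With the block 2 rose and 8 fell, where 20.5% of all genes were called. In cKO 1 rose, again Nr4a1, and 9 fell, among them Klf2, Rhob, Klf4 and Jund, 10 of 19 where 22.4% of all genes were called. Leaving out single libraries moved the count of this list from 2 to between 1 and 5 in Ctrl (5 without the CL library of 3551, where 5.44% of all genes were called, and 8 with the deposited CPM) and from 10 to as few as 2 in cKO (without the IL library of 791, where 11.1% were). None of the 19 was at 0 in all libraries of a group, and the part of dissociation in these results was not tested.

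Several cell type lists moved with the hemispheres as well. Of 12 homeostatic microglia markers 9 fell in Ctrl IL and 8 in cKO IL, and of 12 monocyte markers 6 rose in Ctrl and 8 in cKO, where 6.58% of all genes were called in Ctrl and 22.4% in cKO. Of 12 neutrophil markers none was called in Ctrl by limma without the block (7 had an unadjusted p under 0.05, as did 21.1% of all genes), 10 fell with it, where 20.5% of all genes were called, and 8 fell in cKO. The Ctrl count went to 5 for microglia without the IL library of 3541, 3545 or 3551, where 2.87% to 3.47% of all genes were called, and to 5 for neutrophils without the CL library of 3551. The cKO count went to 5 for monocytes without either library of 791 or the CL library of 788, where 11.1% to 17.4% of all genes were called, and to 5 for neutrophils without the IL library of 784 (0 in a fit of all 14 libraries). Of the T and NK cell markers tested, 3 of 5 fell in Ctrl IL (Klrb1c, Gzma and Nkg7) and none of 8 was called in cKO by limma, nor had any an unadjusted p under 0.05. Of the oligodendrocyte markers none of 11 was called in Ctrl without the block (3 had an unadjusted p under 0.05). In cKO IL 3 of 10 rose (Mobp, Olig1 and Mbp). With the block 3 fell in Ctrl, where 20.5% of all genes were called, and 1 rose in cKO, where 13.5% were. In both genotypes the B cell marker Ighm fell and the astrocyte markers Gfap and Slc1a3 were called, Gfap higher and Slc1a3 lower. Of 8 endothelial markers none was called in Ctrl by limma without the block (2 had an unadjusted p under 0.05) and Kdr rose in cKO. Kdr was called higher in both genotypes with the block, and Ly6c1 and Slco1a4 were called lower in Ctrl. These calls stood where 20.5% of all genes were called in Ctrl and 13.5% in cKO. No neuron marker was called, with an unadjusted p under 0.05 for 0 of 4 in Ctrl and 1 of 6 in cKO by limma. The markers of these lists are named here after their values were seen. The sum of 7 B cell markers was 551 to 885 CPM in CL and 324 to 492 CPM in IL. Oligodendrocyte markers summed to 180 to 332 CPM, astrocyte markers to 124 to 230 CPM and endothelial markers to 91.4 to 277 CPM over the 14 libraries. The part of a changed mix of cells in the differences of Gadd45b, Btg2, Gadd45g, Trp53 and Ccng1 was not tested. The gene whose levels over the 14 libraries were most like those of Gadd45b, by the root mean square difference of z scores among 9753 genes, was Tnfsf9 (0.197), and for Btg2 it was Gpr165 (0.221), for Cdkn1a Nfkbia (0.231), for Ccng1 Ybx1 (0.232) and for Trp53 Syngr2 (0.305). For Gadd45g it was Socs5 (0.371), with Ddit3 next (0.383), and for Gadd45a Plscr1 (0.402). For Mdm2 it was Prmt2 (0.359) and for Phlda3 Gm12715 (0.415). The 14 points of each pattern share mice and hemispheres.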

How the data were processed

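RNA of magnetically sorted CD11b+ cells was made into Smart Seq v4 libraries. Per the labels, the authors used STAR, mm10 (GRCm38) and Partek 8.0. The table they deposited is named raw counts, but each library sums to 1000000, so the deposited values are CPM. Among low values, under 100 reads, 79.0% to 83.6% per library were whole multiples of 1 step (tolerance 0.03), which gave 12.2 to 41.6 M reads (median 34.2 M). The rest look like shared reads, so no count test was run. The authors also deposited tables of their own comparisons (p-values, ratios, fold changes and group means), which were not used.

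CPM were scaled by the trimmed mean of M-values without weights (30% of M, 5% of A) and tested as log2(CPM + 1) with limma 3.58.1 in R 4.3.3, with empirical Bayes moderation and a trend. Genes had to reach the CPM of 10 reads at median depth in at least the smaller group's number of libraries, and 15 reads in total. Fold changes are on the log2(CPM + 1) scale, which understates those of low genes. The script was tested on simulated data. Lengths are exonic unions of the GRCm38 annotation, near copies were found with BLAST 2.17.0 (200 or more aligned bases), and promoters are RefSeq's. Python 3.11.15 did the rest.

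The 9 genes, the gene lists and the promoter motifs were chosen with earlier results of these data known. Named are the 9 genes, their relatives, and of each pathway list the 4 higher and 4 lower called genes of smallest p. The mouse was checked as a block. Hemispheres of the same mouse correlated at 0.182 to 0.608 in 6 of 6 mice, less group means. The 19 other pairs ran from -0.536 to 0.503, with a median of -0.215. Deviations from a group mean cancel out, so positive pairs themselves pull other pairs below 0, and that median is no baseline. The block counts as paired because both hemispheres come from 1 animal. Alternatives were other scalings, pseudocounts of 0.5 and 0.1, no filter, the adjusted p alone and leaving out each library. Others were all 14 libraries in a single fit, the mouse as a random effect and, between hemispheres only, the block. The targeted gene is not reported here.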

Additional observations from a re-analysis of the deposited data

Results flagged for a closer look

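Of 50 values tested in the groups of 4 libraries, 1 had a library far from the others. The summed level of 9 neuron markers in Ctrl IL was 21.2 CPM in the library of mouse 3546, which also has the fewest reads, and 3.04 to 5.30 CPM in the other 3 libraries. Groups of 3 were not tested, and chance gives about 1 such value in 20. None of the 9 stress genes was marked in this way, and in no gene did all mice of a genotype move against all mice of the other.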

How the results depend on the processing

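Of the 9 genes, 2 were called between hemispheres in Ctrl, against 4 with the deposited CPM without further scaling, none without a filter, 5 with the replicate block of mice and 6 with the mouse as a random effect over all 14 libraries. Leaving out single libraries gave 0 to 2 in Ctrl, 1 to 3 in cKO and 0 in the other comparisons. Over all genes, the 1078 calls in Ctrl became 535 without a filter, 2009 over all 14 libraries, 3358 with the block and 4258 with the random effect, the 3746 in cKO became 2436, 1391 and 2261 for the first 3 of these settings, the 111 between genotypes in IL became 67 without a filter and 190 with the random effect, the 145 in CL became 77, 265 over all 14 libraries and 290 with the random effect, and the interaction gave 3 with the random effect. Without single libraries these counts were 487 to 1413 in Ctrl, 1881 to 3537 in cKO, 46 to 284 between genotypes in IL (284 without the Ctrl IL library of 3546), 70 to 165 in CL and 0 to 1 for the interaction. With the deposited CPM, 625 genes were higher and 814 lower in Ctrl IL, against 594 and 484, and in cKO 1647 and 2146, against 2150 and 1596. Groups of the 9 genes that did not overlap on the deposited CPM went, on CPM divided by the TMM factors, a scale added after the data were seen, from 5 to 2 in Ctrl and from 1 to 0 between genotypes in CL. No called gene among the 9 or their relatives changed direction. Direction did change in some setting for uncalled differences, namely Trp53 between hemispheres in cKO, Gadd45g, Mdm2 and Phlda3 between genotypes in IL, Btg2, Ccng1 and Phlda3 in CL, and 5 of the 9 genes for the interaction. Depth limits Phlda3 most.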
